A study of Rattus norvegicus with 10 samples.

Results

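Matrix metalloproteinases (MMPs) and the tissue inhibitors of metalloproteinases (TIMPs) were followed in the lumbar spinal cord of morphine-tolerant rats. The genes were Mmp2, Mmp3, Mmp8, Mmp9, Mmp14, Mmp24 and Timp1 to Timp4, listed by name, with no threshold on a measured value, though earlier results of these data were known when the list was made. A probe was assigned to a gene when its RefSeq mRNA accession belonged to that gene. Of the 10 genes listed, 9 had an mRNA probe, out of 13888 genes with an mRNA probe named through RefSeq, and Mmp24 was not analysed here. Each of the 9 genes was read by 1 probe with 1 spot per array, so no second probe was at hand to check a value.

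RNA of the lumbar enlargement was measured in 5 rats of the morphine tolerance (MT) group and in 5 of the normal saline (NS) group, on 1 one-colour lncRNA and mRNA array per rat. MT rats 1 to 5 received 10 μg of morphine in 10 μl by intrathecal injection 2 times a day for 7 days. NS rats 6 to 10 received 10 μl of saline on the same schedule, so both groups carried the repeated intrathecal injections. By the methods, the cord was taken the day after this course, with anesthesia 1 hour after a further morning injection of morphine or saline. Effects of the last dose and of the repeated doses therefore cannot be told apart. All were male Sprague Dawley rats of 240 to 260 g, and the tissue held all cell types of the cord together.

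MMPs are zinc-dependent proteases that cut the extracellular matrix and also release or inactivate cytokines, receptors and growth factors. Most are secreted as inactive proenzymes that are opened by other proteases, such as plasmin, and TIMPs block them by binding in the catalytic cleft. In the spinal cord, MMP-9 and MMP-2, the gelatinases, are known for their roles in the blood-spinal cord barrier and in neuroinflammation.

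By scan time the arrays came from 3 slides. Slide 1 held MT rats 1, 3, 4 and 5, slide 2 held MT rat 2 and NS rats 6, 7 and 10, and slide 3 held NS rats 8 and 9. Slide 2 alone held both groups, so a value within slide 2 rests on 1 MT rat and 3 NS rats. Spots well above background made up 81.1% to 83.9% of an array in the MT group and 58.6% to 79.6% in the NS group. The arrays of slide 3 were lowest, at 63.8% for NS rat 8 and 58.6% for NS rat 9. On slide 2 the NS arrays had 77.4% to 79.6% and MT rat 2 had 82.8%. Defining markers of the tissue were bright, with mean log2 intensities of 16.30 for Gfap of astrocytes, 16.66 for Nefh of neurons and 12.63 for Slc18a3 of motor neurons. Values below are quantile-normalized log2 intensities. They compare rats for the same probe and not one gene with another, since probes differ in brightness.

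Among the 9 genes measured, Mmp9 was 2.83-fold higher in the MT group and Mmp2 was 1.42-fold lower, while the 4 TIMPs, Mmp3 and Mmp14 showed no difference beyond the spread between rats. The study's criteria were an unadjusted P below 0.05 and a fold over 1.5. The methods word this fold as a log2 value, but it was read here on the linear scale, on which the study tabulates its genes. By these criteria 1 of the 8 genes past the filter on dim probes was called. The same criteria called 2.73% of the 20259 RNAs tested. With Benjamini-Hochberg adjustment over all RNAs, limma called 0 of the 8 at 0.05 and 0.197% of all RNAs, and 2 of the 8 had an unadjusted p below 0.05. Of all RNAs, 16.4% had an unadjusted p below 0.05. The fitted value was above 0 for 5 of the 8 genes and below 0 for 3.

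Mmp9 encodes gelatinase B, which cuts denatured collagen and basement membrane collagen and is stored in neutrophil granules. Its log2 intensity was 7.85, 7.99, 5.94, 8.64 and 6.94 in MT rats 1 to 5. In NS rats 6 to 10 it was 5.94, 6.15, 6.71, 6.29 and 4.76. The values of 4 of the 5 MT rats lay above every NS rat, while MT rat 3 lay within the NS range, so the groups overlapped. Group means were 7.47 ± 1.05 for MT and 5.97 ± 0.74 for NS (SD, n = 5 each). Their difference, the log2 fold change, was 1.503, with an SE of 0.52 and a 95% confidence interval of 0.35 to 2.65. On the log2 reading of the fold criterion Mmp9 would thus lie just above the limit. Its p in limma was 0.0155 before and 0.209 after adjustment, and the two-sided exact permutation test over 252 assignments of the rats gave p = 0.0397. Mmp9 thus passed the study's criteria and failed the adjusted threshold. The study singled it out on these samples, so its pass is not independent evidence. It ranked 37 of 20259 RNAs by the size of the fold change and 1500 by p. The SD of Mmp9 within the NS group alone was above that of 91.1% of all RNAs. Within slide 2, MT rat 2 lay 2.38 log2 units above the mean of NS rats 6, 7 and 10 and above each of them. Without the 2 arrays of slide 3, the difference was 1.86.

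**Figure D1:**
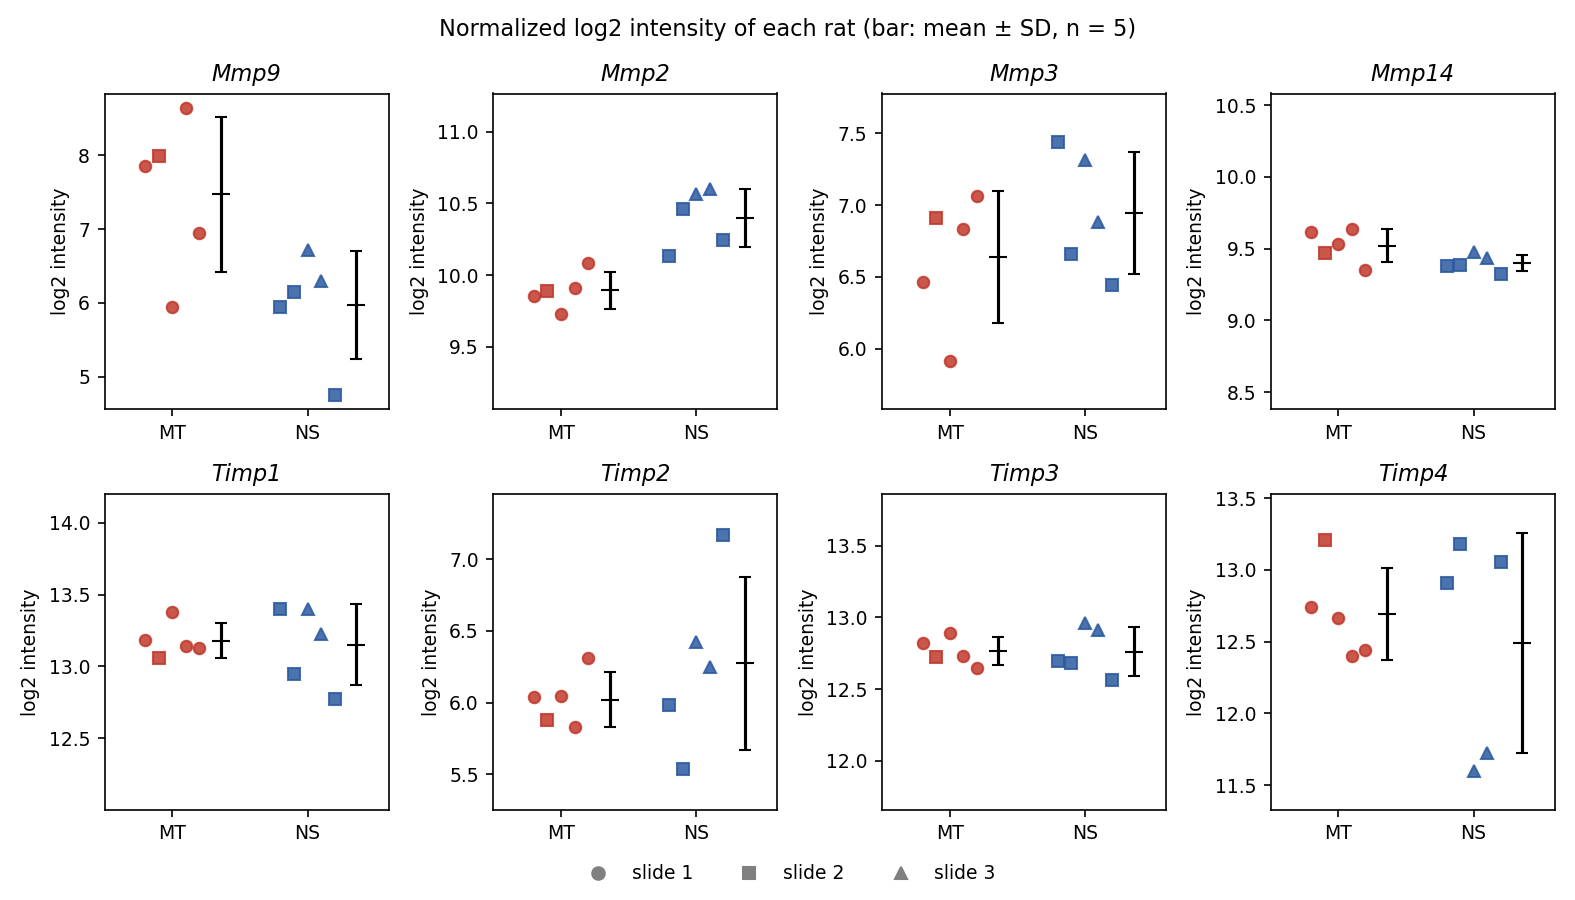
Quantile-normalized log2 intensity (y axis) of the 8 MMP and TIMP genes past the filter, with 1 point per rat of the MT and NS groups (x axis), a marker shape for each slide, and a bar for the mean ± SD of each group (n = 5). For Mmp9, 4 of 5 MT rats lie above every NS rat, for Mmp2 all 5 MT rats lie lower than all 5 NS rats, and for Timp4 the 2 NS rats of slide 3 lie lowest.

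Mmp2 encodes gelatinase A, a constitutively made gelatinase whose proenzyme is opened at the cell surface by MMP-14 together with TIMP-2. MT rats 1 to 5 read 9.85, 9.89, 9.73, 9.91 and 10.09. NS rats 6 to 10 read 10.13, 10.46, 10.57, 10.60 and 10.24. No MT rat reached the level of any NS rat, and the closest pair was MT rat 5 and NS rat 6. Of all RNAs tested, 5.64% had groups that did not overlap, 3.3% with the MT group below and 2.34% with the MT group above the NS group. Among the 8 genes this held for 1, Mmp2. Group means were 9.89 ± 0.13 for MT and 10.40 ± 0.20 for NS (SD, n = 5 each). This gave a log2 fold change of -0.51, with an SE of 0.11 and a 95% confidence interval of -0.75 to -0.27. Its p in limma was 0.000883 before and 0.0932 after adjustment, and the exact permutation test gave p = 0.00794, the smallest that 252 assignments allow. Mmp2 failed the study's criteria by its fold and the adjusted threshold by its p. It ranked 192 by p, well ahead of Mmp9, and 1621 by the size of the fold change. Within slide 2, MT rat 2 lay 0.39 log2 units below the mean of the 3 NS rats and below each of them. NS rats of slide 3 lay 0.30 log2 units above NS rats of slide 2, and without slide 3 the log2 fold change was -0.39.

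Mmp3 encodes stromelysin-1, which cuts proteoglycans and fibronectin and can open the MMP-9 proenzyme. In the MT group, rats 1 to 5 had log2 intensities of 6.47, 6.91, 5.91, 6.83 and 7.07. In the NS group, rats 6 to 10 had 7.44, 6.66, 7.32, 6.88 and 6.44. The groups overlapped, with MT rat 3 alone below every NS rat. This gave a log2 fold change of -0.31, with an SE of 0.26 and a 95% confidence interval of -0.88 to 0.26. The adjusted p in limma was 0.568. Within slide 2 the sign was the opposite, with MT rat 2 at 0.06 above the mean of the NS rats and inside their range.

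Mmp14 encodes MT1-MMP, a membrane-anchored MMP. Its log2 intensity was 9.61, 9.47, 9.53, 9.64 and 9.35 in MT rats 1 to 5. In NS rats 6 to 10 it was 9.38, 9.38, 9.47, 9.44 and 9.33. The values of 3 of the 5 MT rats lay above every NS rat, but all 10 rats lay close together. The SD of Mmp14 within the NS group was above that of 4.95% of all RNAs. The log2 fold change was 0.12, with an SE of 0.07 and a 95% confidence interval of -0.04 to 0.28. The adjusted p in limma was 0.420 and the exact permutation p was 0.0794.

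Mmp8 encodes the collagenase of neutrophil granules. It was well above background on 0 of the 10 arrays and was therefore not tested. Its spots read 1.28 to 2.90 on the log2 scale in the MT group and 1.37 to 3.52 in the NS group, all not well above background. Mmp3 and Mmp8 lie in a run of 10 MMP genes that neighbour each other in the RefSeq annotation, in the order Mmp13, Mmp12, Mmp1b, Mmp3, Mmp1, Mmp10, Mmp8, Mmp27, Mmp20 and Mmp7. Of these 10 genes 9 had a probe, and 4 of them, Mmp12, Mmp3, Mmp20 and Mmp7, passed the filter.

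The promoters of Mmp3 and Mmp8 are shown because both genes lie in this run, while Mmp3 was well above background on 10 of 10 arrays and Mmp8 on 0. The sequences are the 250 bases before each gene's start, from RefSeq on build GRCr8, both on the plus strand, at chr8:12925031-12925280 for Mmp3 and chr8:13008640-13008889 for Mmp8. They were searched on both strands for TGANTCA, the site bound by AP-1 (dimers of Fos and Jun proteins), and for a TATA box with the letters TATAAA. Capitals mark the matches.
Mmp3: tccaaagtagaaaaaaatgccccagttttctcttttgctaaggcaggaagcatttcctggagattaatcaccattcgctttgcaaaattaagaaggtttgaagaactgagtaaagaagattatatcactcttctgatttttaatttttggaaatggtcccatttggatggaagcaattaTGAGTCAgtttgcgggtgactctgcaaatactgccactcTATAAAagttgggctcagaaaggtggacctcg
Mmp8: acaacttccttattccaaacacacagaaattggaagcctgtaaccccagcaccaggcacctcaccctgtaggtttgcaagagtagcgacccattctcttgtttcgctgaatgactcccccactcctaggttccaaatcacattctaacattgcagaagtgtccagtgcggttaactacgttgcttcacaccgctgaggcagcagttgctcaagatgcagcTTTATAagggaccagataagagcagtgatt
The Mmp3 window held 1 match to TGANTCA and 1 to TATAAA. The Mmp8 window held no match to TGANTCA and 1 match to TATAAA on the other strand. Of 33469 promoter windows of this length, 6.34% held TGANTCA and 12.9% held TATAAA. In the windows of Timp1, Timp2, Timp3 and Timp4 neither was found, and their GC content was 61.2%, 72%, 69.6% and 50.8%, compared with 38.8% for Mmp3 and 48% for Mmp8. Mmp2, Mmp9 and Mmp14 had no entry.

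None of the 4 TIMPs passed either threshold. Timp1 encodes an inducible inhibitor that binds the MMP-9 proenzyme. MT rats 1 to 5 read 13.19, 13.06, 13.38, 13.14 and 13.13. NS rats 6 to 10 read 13.40, 12.94, 13.40, 13.23 and 12.77. The MT rats lay wholly inside the NS range. MT and NS differed by a log2 fold change of 0.03, with an SE of 0.13 and a 95% confidence interval of -0.27 to 0.33, so the interval reached neither a 1.5-fold rise nor a 1.5-fold fall. The adjusted p in limma was 0.926.

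Timp3 encodes the inhibitor that is bound to the matrix and that also blocks ADAM proteases. Its log2 intensity was 12.83, 12.72, 12.89, 12.73 and 12.65 in MT rats 1 to 5. In NS rats 6 to 10 it was 12.69, 12.68, 12.96, 12.92 and 12.56. The MT rats again lay inside the NS range. The log2 fold change was 0.00, with an SE of 0.09 and a 95% confidence interval of -0.20 to 0.21. The adjusted p in limma was 0.994.

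Timp2 encodes the inhibitor that takes part in opening the MMP-2 proenzyme. In the MT group, rats 1 to 5 had log2 intensities of 6.04, 5.88, 6.05, 5.83 and 6.31. In the NS group, rats 6 to 10 had 5.98, 5.54, 6.42, 6.25 and 7.17, so the highest and the lowest rat were both NS rats of slide 2. MT and NS differed by a log2 fold change of -0.25, with an SE of 0.26, a 95% confidence interval of -0.83 to 0.32 and an adjusted p in limma of 0.645.

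Timp4 encodes an inhibitor that is found in heart and brain. Its log2 intensity was 12.74, 13.21, 12.66, 12.40 and 12.44 in MT rats 1 to 5. In NS rats 6 to 10 it was 12.91, 13.18, 11.60, 11.72 and 13.05. The values followed the slides, with 12.91 to 13.21 in the 4 rats of slide 2, 12.40 to 12.74 on slide 1 and 11.60 to 11.72 on slide 3. NS rats of slide 3 lay 1.39 log2 units below NS rats of slide 2. The log2 fold change was 0.20, with an SE of 0.34, a 95% confidence interval of -0.55 to 0.95 and an adjusted p in limma of 0.790. Without slide 3 it was -0.35, the opposite sign. For Timp4, as for every gene here, slide and group cannot be told apart on slides 1 and 3.

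**Figure D2:**
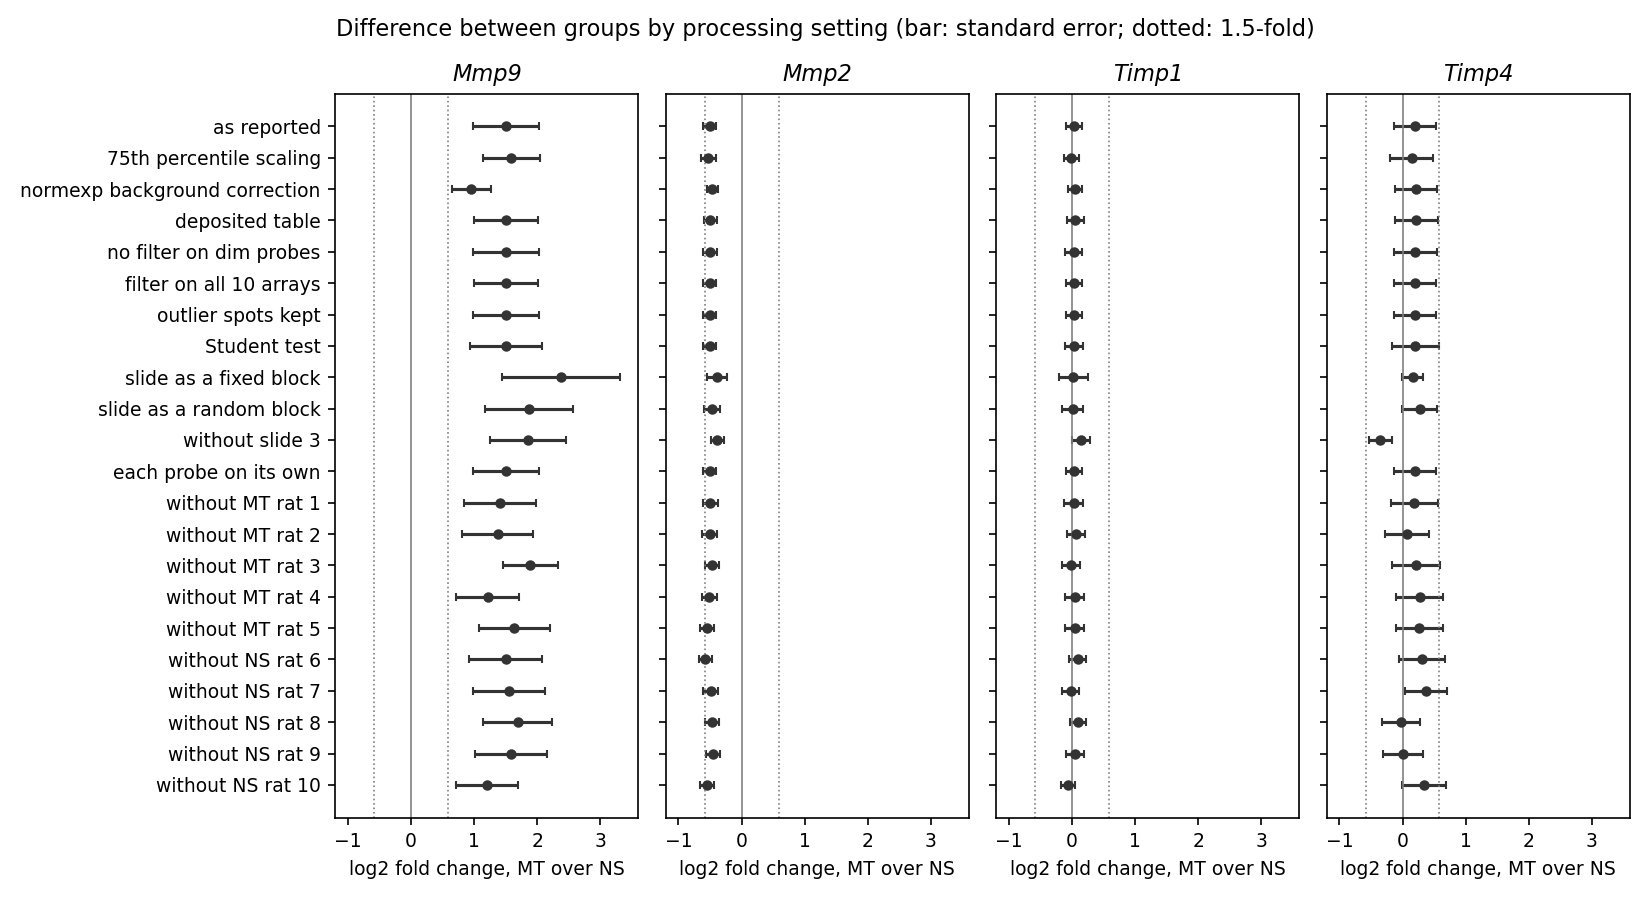
Log2 fold change, MT over NS (x axis), of Mmp9, Mmp2, Timp1 and Timp4 under each way of processing the arrays (y axis), with bars for the SE and dotted lines at a fold of 1.5. Mmp9 stays between 0.95 and 2.38 and Mmp2 between -0.57 and -0.39, while Timp1 lies on both sides of 0 and Timp4 reaches -0.35 without slide 3.

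In the RefSeq annotation Timp1, Timp3 and Timp4 each lie inside a synapsin gene, Syn1, Syn3 and Syn2. Timp1 and Timp4 are on the opposite strand to their hosts. Synapsins coat synaptic vesicles in neurons. Log2 fold changes of the hosts were 0.13 and 0.06 for the 2 transcripts of Syn1, 0.01 and 0.25 for the 2 of Syn2, and -0.37 for Syn3. The last had an adjusted p in limma of 0.298, and none of these passed the study's criteria.

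The other genes of the pathway were read from 7 lists of 93 genes, of which 65 had a probe and 57, with 59 RNAs, passed the filter. Of these 59 RNAs, 7 passed the study's criteria, all 7 higher in the MT group, and the same criteria called 1.74% of all RNAs as higher and 0.997% as lower. By fitted value 42 were higher and 17 lower. With the slide as a fixed block 2 of the 59 passed, Slpi and Fos, beside 1.6% of all RNAs. With the slide as a random block 3 passed, and without NS rat 9 the count was 4.

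Among the other MMPs, 1 of 10 RNAs passed the criteria, Mmp12, the macrophage elastase, and the median log2 fold change was 0.17. Mmp12 was dim, at 3.74 to 4.19 in the MT group and 2.06 to 4.00 in the NS group. MT exceeded NS by 0.81 on the log2 scale, with an adjusted p in limma of 0.253. With normexp background correction the difference was 0.033 and did not pass. Mmp12 also failed without slide 3, with either slide block, and without MT rat 2, NS rat 6 or NS rat 9, and it was not tested when a probe had to be above background on all 10 arrays. The probes of Mmp1, Mmp10, Mmp13, Mmp21 and Mmp27 did not pass the filter.

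Among the cofactors and other inhibitors, 1 of 8 RNAs passed, Slpi, and the median was 0.10. Slpi encodes a secreted inhibitor of neutrophil elastase and other serine proteases, not of MMPs. The study listed it among its most raised mRNAs on these samples, so its direction is not independent evidence. It was 10.55 to 11.78 in the MT group and 9.22 to 10.25 in the NS group, with no overlap. Its log2 fold change was 1.67 and its adjusted p in limma was 0.0425. Slpi passed the study's criteria under every alternative run, but the adjusted call was lost with the slide as a fixed block (adjusted p = 0.966) or a random block (0.308), without slide 3 (0.148), and without MT rat 1, 3 or 4 or NS rat 7, 8, 9 or 10. It was also lost with no filter on dim probes (0.0559) and by the methods' t-test (0.0538).

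In the plasminogen activation list 0 of 8 RNAs passed, with a median of 0.21, and in the ADAM list 0 of 3, with a median of 0.01. In the ADAMTS list 1 of 5 passed, Adamts1, which encodes a protease that cuts proteoglycans, and the median was -0.10. Adamts1 was 9.82 to 10.92 in the MT group and 8.74 to 10.46 in the NS group, and 4 of the 5 MT rats lay above every NS rat. Its log2 fold change was 0.94, with an adjusted p in limma of 0.210.

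Among the matrix substrates, 1 of 12 RNAs passed, Fn1, which encodes fibronectin, and the median was 0.16. Fn1 was 12.55 to 13.67 in the MT group and 12.07 to 12.52 in the NS group. The groups did not overlap, but the lowest MT rat and the highest NS rat were almost level. Its log2 fold change was 0.59, with an adjusted p in limma of 0.245. Its fold stood at the limit of the criteria. Fn1 no longer passed with 75th percentile scaling, normexp, or either slide block, nor without MT rat 1, MT rat 3, NS rat 6 or NS rat 10.

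Among the inducers of MMP transcription, 3 of 13 RNAs passed, and the median of 0.32 was the highest of the 7 lists, beside a median of -0.0013 for all RNAs. The 3 were Fos and Junb, subunits of AP-1, and Il1a, a cytokine. Log2 fold changes were 0.75 for Fos, 0.59 for Junb and 1.27 for Il1a, with adjusted p values in limma of 0.211, 0.261 and 0.278. MT rats above every NS rat numbered 4 of 5 for Fos, 4 of 5 for Junb and 3 of 5 for Il1a. With the slide as a fixed block, 1 of these 3, Fos, still passed the criteria. Fos also passed with each rat left out in turn. Junb no longer passed with 75th percentile scaling or either slide block, nor without MT rat 2, 4 or 5 or NS rat 9 or 10. Il1a no longer passed by the methods' t-test or with either slide block, nor without MT rat 1, 2 or 4 or NS rat 9 or 10. By fitted value 9 of the 13 inducers were higher and 4 lower. The smallest p in limma of this list was that of Rela, at 0.00348 before and 0.138 after adjustment. Rela was lower in the MT group, with a log2 fold change of -0.27 and no overlap, but failed the criteria by its fold. Of all RNAs, 3.3% had the MT group wholly below the NS group.

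**Figure D3:**
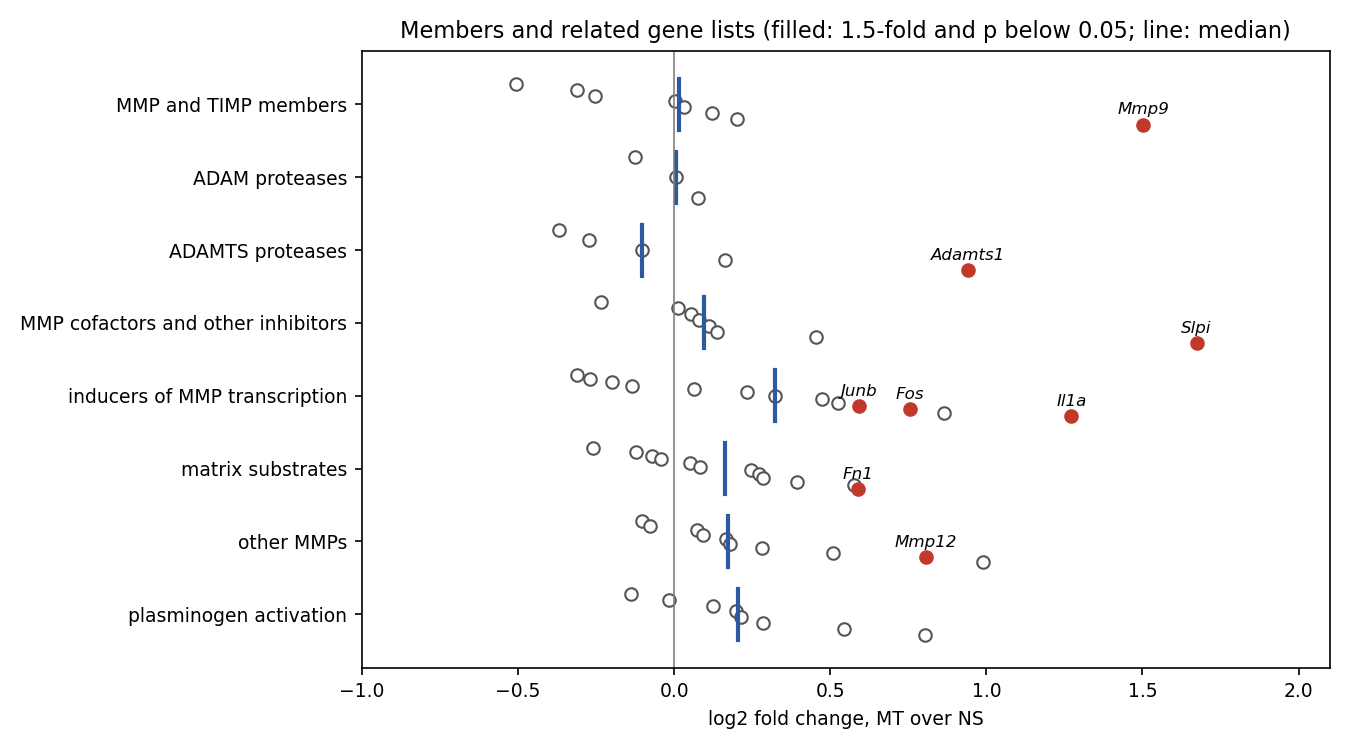
Log2 fold change, MT over NS (x axis), of the MMP and TIMP genes and of each RNA in the 7 related lists (y axis), with filled points for RNAs past the study's criteria and a blue line at each median. All 7 filled points of the related lists lie to the right of 0, as does Mmp9, and list medians run from -0.10 to 0.32.

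Because neutrophils store MMP-9, their markers were read beside it. Of 12 neutrophil markers listed, 9 had a probe and 6 passed the filter, and the fitted value was higher in the MT group for 6 of these 6. Their median log2 fold change was 0.64. With the slide as a fixed block 4 of the 6 were higher, with Cxcr2 at -0.13 and Ngp at -0.42, and without NS rat 9 the count was 5, with Prtn3 at -0.048. With normexp the median was 0.21. A probe could pass the filter on the 5 MT arrays alone, and the MT arrays had more spots well above background. When a probe had to be above background on all 10 arrays, the dim Cxcr2, Ngp and Prtn3 were not tested. The 3 markers left were all higher, with a median of 0.91. The criteria were passed by 2 of the 6, S100a8, a calcium-binding protein of neutrophils and monocytes, and Csf3r, the receptor of granulocyte colony-stimulating factor. S100a8 was 6.19 to 7.46 in the MT group and 4.12 to 5.92 in the NS group, and its log2 fold change was 1.44 with an adjusted p in limma of 0.121, or 0.69 with normexp. Csf3r was 7.94 to 8.87 in the MT group and 7.33 to 7.79 in the NS group, and its log2 fold change was 0.91 with an adjusted p in limma of 0.0636. Neither gene overlapped between the groups, and the study singled out S100a8 on these samples. Camp, at 6.53 to 6.80 in the MT group and 5.11 to 6.51 in the NS group, did not overlap either. Its log2 fold change of 0.56, with an adjusted p in limma of 0.290, fell short of the fold. Of all RNAs, 1.74% passed the criteria as higher and 2.34% had the MT group wholly above the NS group. The summed linear intensity of the 6 markers was 465 to 724 in the MT group and 292 to 378 in the NS group. S100a8, Csf3r and Camp are the brightest of the 6, so this separation restates the single genes and is not further evidence. MT rat 3, with the lowest Mmp9 of its group, had the lowest sum of its group at 465, which was still above every NS rat. MT rat 5, with the next lowest Mmp9, had the highest sum at 724. With each marker given equal weight, as the mean deviation in log2 units, MT rat 2 was lowest of its group at 0.21. MT rat 3 was then at 0.22, and the highest NS value was -0.03. The dim Cxcr2, Ngp and Prtn3 count in this mean as much as the brighter markers. Of the markers that failed the filter, Ltf and Ctsg, which encode granule proteins, were well above background on 0 and 3 arrays, and Fpr1, a chemotactic receptor, on 2. Mmp8, also of neutrophil granules, was so on 0, and Mpo, Elane and S100a9 were not analysed here. The part of neutrophils in the Mmp9 result was not tested. In whole tissue, more cells of a type and more RNA per cell cannot be told apart.

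**Figure D4:**
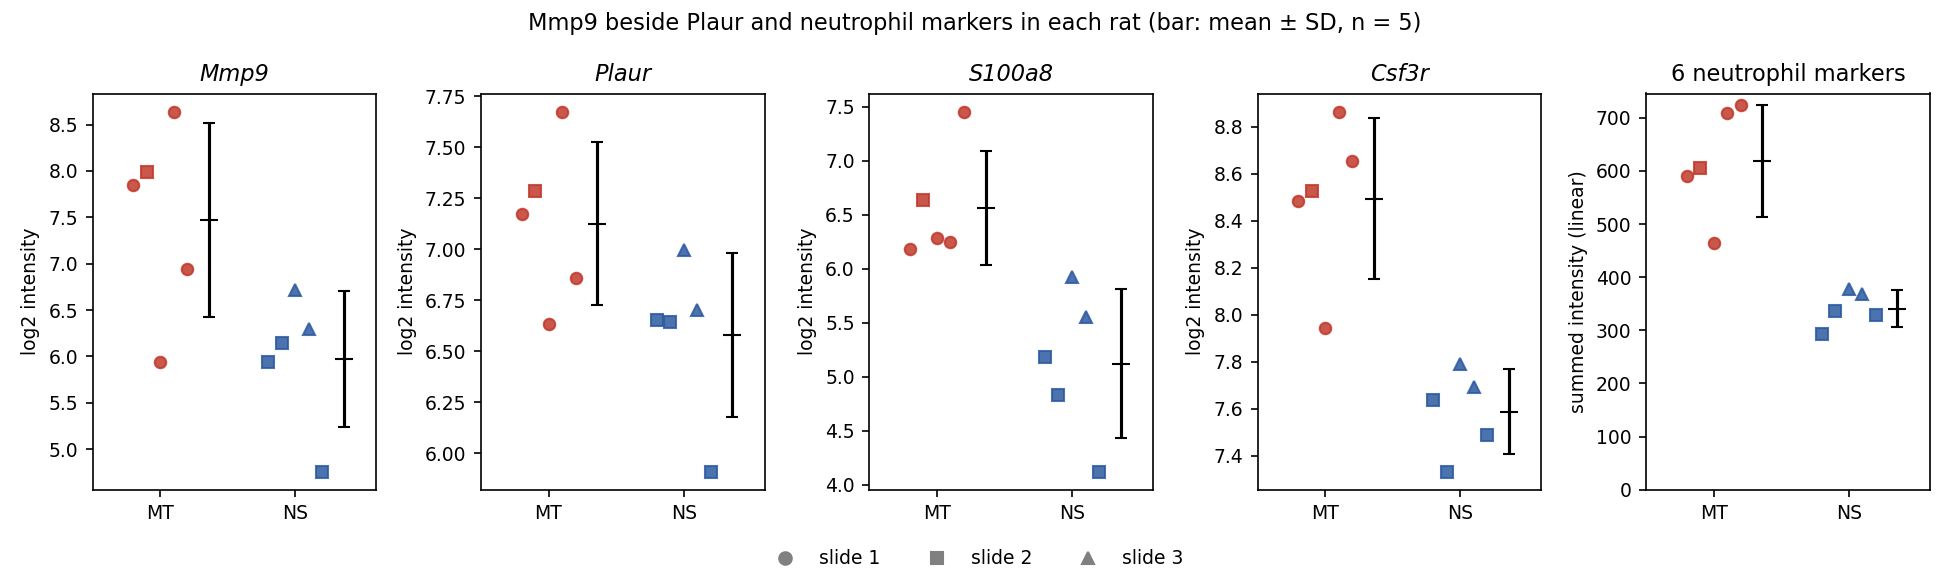
Quantile-normalized log2 intensity (y axis) of Mmp9, of Plaur, the urokinase receptor gene, and of the neutrophil markers S100a8 and Csf3r, and the summed linear intensity of the 6 markers, with 1 point per rat of the MT and NS groups (x axis), a shape for each slide and a bar for mean ± SD (n = 5). The sum runs from 465 to 724 in the MT group and from 292 to 378 in the NS group, whereas Mmp9 overlaps through MT rat 3. The sum restates the single markers and is not further evidence.

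Markers of other cell types that can make MMPs were read in the same way. Of the perivascular macrophage markers 1 of 3 passed, Mrc1, the mannose receptor, with a log2 fold change of 0.63, and 0 of 3 passed with normexp or without MT rat 4 or NS rat 10. Their summed intensity was 646 to 1013 in the MT group and 500 to 629 in the NS group. With each marker given equal weight, as the mean deviation in log2 units, the groups overlapped, with a lowest MT value of -0.13 and a highest NS value of -0.11. Cd163 was well above background on 0 arrays. Microglial markers were lower by fitted value in 10 of 10 RNAs, and 2 passed the criteria, Tmem119 at -1.24, which the study also singled out on these samples, and Gpr34 at -0.63. In 5 of the 10 the groups did not overlap, beside 3.3% of all RNAs with the MT group wholly below. The criteria called 1.74% of all RNAs as higher and 0.997% as lower. The sum of the microglial markers was 65383 to 78746 in the MT group and 77439 to 103424 in the NS group, with 1 MT rat, rat 3, above the lowest NS rat. With each marker given equal weight the groups were almost level at their edges but did not overlap. The highest MT value was -0.0042 and the lowest NS value -0.0028. Sums and equal-weight values restate the single markers and are not further evidence. The part of perivascular macrophages and microglia in the Mmp2 and Mmp9 results was not tested. With the slide as a fixed block 1 of the 10 microglial markers passed, as without NS rat 8. In the endothelial, mural cell, meningeal fibroblast, astrocyte, oligodendrocyte, neuron, motor neuron and erythrocyte lists 0 RNAs passed the criteria.

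The mRNAs whose pattern over the 10 arrays was most like that of Mmp9 were sought among 13315 others by Pearson r, as a description. They share arrays and slides, so no p is given. The named mRNAs with the highest r were Plaur at 0.975, Lilrc2 at 0.971 and Ebi3 at 0.967. Plaur encodes the urokinase receptor, which gathers plasminogen activation at the cell surface, and Ebi3 a cytokine subunit. With each slide centred on its own mean, r was 0.974, 0.965 and 0.972. Plaur was 6.63 to 7.68 in the MT group and 5.91 to 6.99 in the NS group, and its log2 fold change of 0.55 had an adjusted p in limma of 0.287 and did not pass the criteria. Lilrc2 and Ebi3 passed them, with log2 fold changes of 1.69 and 0.93 and adjusted p values in limma of 0.163 and 0.229. The study also listed Lilrc2 among its most raised mRNAs on these samples, so its pass is not independent evidence. For Timp1 the highest r were 0.993 for Cdc45, a DNA replication factor, 0.971 for Faf1 and 0.958 for Pdgfc, a growth factor. Their log2 fold changes were 0.03, 0.00 and 0.12, and like Timp1 none passed a threshold.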

How the data were processed

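Total RNA of 5 MT and 5 NS lumbar enlargements was hybridized to one-colour Agilent arrays. The authors extracted spots with Feature Extraction 11.0.1.1 and deposited each spot's intensity, background-subtracted and on a linear scale. The authors also deposited a table of quantile-normalized log2 values, with which the values used here correlated at r of 0.993 to 0.999 per array over 24484 probes. Intensities were floored at 1, converted to log2 and quantile normalized, spots marked as outliers were dropped, and the remaining spots and probes of an RNA were averaged. R 4.3.3 was used with the packages limma 3.58.1 and data.table at version 1.17.8. Probes were kept with over 0.5 of their spots well above background on at least 5 arrays. Of 15323 mRNA probes, 14274 were named through the RefSeq annotation of GRCr8, whose build differs from that of the array.

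MT was compared with NS by limma over 20259 RNAs with Benjamini-Hochberg adjustment, and single genes also by exact two-sided permutation. Rats were separate animals. Arrays with a shared scan time were taken as 1 slide. Other settings tried were 75th percentile scaling, a normexp correction (offset 50), the deposited table, 2 other filters, outlier spots kept, the methods' t-test, a fixed or a random block for the slide, no slide 3, each probe on its own, and each rat left out. Normexp used median spot signals, since the files hold no mean signals. The fit was tested on simulated arrays.

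The genes and lists were chosen with earlier results of these data known. Named were all 10 genes, up to 4 RNAs of each pathway list with the smallest P among those past the criteria, up to 3 of each marker list by intensity, and the 3 named mRNAs most like Mmp9 and Timp1. Synapsin genes, Cxcr2, Ngp, Prtn3, Mmp20, Mmp7, Rela, Tmem119, Gpr34 and genes named as below the filter fall outside this rule. They were named after their values were seen. Promoters of 250 bases came from RefSeq. Python 3.11.15 with matplotlib 3.10.9 drew the figures. Behavioural tests, RT-qPCR and lncRNAs were left out.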

Additional observations from a re-analysis of the deposited data

How the results depend on the processing

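Under the 21 alternatives, Mmp9 was higher and passed the study's criteria in all 21, with log2 fold changes from 0.95 with normexp to 2.38 with the slide as a fixed block, and adjusted p from 0.128 to 1.00. With the slide as a random block it was 1.87. Mmp2 was lower in all 21, from -0.57 to -0.39, with adjusted p from 0.0530 to 1.00, and passed the criteria in 0. Leaving out each rat in turn gave 1.20 to 1.89 for Mmp9 and -0.57 to -0.46 for Mmp2. Signs turned for Timp1 at -0.014 and Timp3 at -0.045 with 75th percentile scaling, for Mmp3 at 0.062 with the fixed block and for Timp4 at -0.35 without slide 3. They also turned on leaving out rats, with ranges of -0.065 to 0.093 for Timp1, -0.048 to 0.051 for Timp3 and -0.024 to 0.37 for Timp4. The cause was not tested. No paired analysis was possible because the rats are numbered 1 to 10 and the groups share no number.

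With 5 arrays per group, 1 probe per gene and mixed slides, small differences cannot be resolved. The fixed block rests on 1 MT rat against 3 NS rats.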
